A study of Mus musculus with 8 samples.

Results

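Nuclear receptors are transcription factors that many small lipophilic molecules switch on or off, and in hepatocytes they tie the levels of bile acids, sterols, fatty acids and foreign compounds to the genes that make, move and degrade them. The 10 receptors described here are Nr5a2 (LRH-1), Nr0b2 (SHP), Nr1h4 (FXR), Nr1h3 (LXR alpha), Ppara, Pparg, Nr1i2 (PXR), Nr1i3 (CAR), Hnf4a and Rxra. They were chosen by name, with earlier results of these data known, and every probe that the platform annotation gives 1 of these symbols was taken, which made 15 of the 25697 probes on the array. They are 10 of 16593 named genes. Of these, 13 probes of 9 receptors passed the filter on dim probes. The probe of Nr0b2 did not pass, and neither did 1 of the 3 Nr5a2 probes.

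RNA was measured on Illumina bead arrays in the livers of 8 C57Bl6/Ntac mice, all kept on high fat diet for 8 weeks, with a fast of 6 hours. The 4 control livers came from mice 641, 658, 661 and 663, whose Mfn1 genotype is given as wildtype. The 4 Mfn1 LKO livers came from mice 637, 638, 651 and 701, in which liver Mfn1, a GTPase that fuses mitochondrial outer membranes, was deleted by AlbCre, a Cre recombinase driven by the albumin promoter of hepatocytes. Sample titles carry AlbCre in both groups, so it is unknown whether controls had Cre, and no source used here gives age or sex. The comparison asks whether the receptors or their known targets differed in the liver when Mfn1 was deleted under high fat feeding. Livers are mixtures of cells, and fewer cells of a type cannot be told apart from less RNA per cell.

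Background on how the receptors are wired helps to read the values. FXR senses bile acids and induces SHP, a receptor-like protein without a DNA-binding domain that represses LRH-1 and HNF4A on the bile acid synthesis genes Cyp7a1 and Cyp8b1. LXR alpha senses oxysterols, PPAR alpha senses fatty acids and drives their oxidation in fasting, and PPAR gamma drives lipid droplet genes when the liver accumulates fat. PXR and CAR sense drugs and other foreign compounds. FXR, LXR alpha, the PPARs, PXR and CAR bind DNA mainly as heterodimers with RXR alpha or its relatives. HNF4A binds as a homodimer and maintains hepatocyte identity, while LRH-1 binds as a monomer.

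Receptors of this family read copies of the half-site AGGTCA, and LRH-1 reads the extended half-site CAAGGNCA. The promoters shown are those of Nr5a2, the 1 receptor whose control and Mfn1 LKO livers did not overlap, of Nr0b2, its inducible repressor, and of Cyp8b1, a textbook LRH-1 target. The sequences are RefSeq's, build GRCm38.p6, 250 bases upstream of each start, 5′ to 3′, with matches to AGGTCA or CAAGGNCA in capitals. The windows are chr1:136960449-136960698 and chr1:136953631-136953880 (minus strand) for 2 starts of Nr5a2, chr4:133553126-133553375 (plus strand) for Nr0b2, and chr9:121916306-121916555 (minus strand) for Cyp8b1.
Nr5a2 start 1: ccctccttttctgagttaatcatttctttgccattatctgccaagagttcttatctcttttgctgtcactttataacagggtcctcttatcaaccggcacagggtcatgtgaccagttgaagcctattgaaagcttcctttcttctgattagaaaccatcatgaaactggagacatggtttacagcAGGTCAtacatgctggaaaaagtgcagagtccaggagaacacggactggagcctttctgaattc
Nr5a2 start 2: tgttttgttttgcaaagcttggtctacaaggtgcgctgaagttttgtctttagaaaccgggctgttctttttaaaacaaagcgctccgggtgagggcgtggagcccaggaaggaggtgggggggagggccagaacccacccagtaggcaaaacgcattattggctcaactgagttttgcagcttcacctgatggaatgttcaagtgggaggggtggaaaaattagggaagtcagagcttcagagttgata
Nr0b2: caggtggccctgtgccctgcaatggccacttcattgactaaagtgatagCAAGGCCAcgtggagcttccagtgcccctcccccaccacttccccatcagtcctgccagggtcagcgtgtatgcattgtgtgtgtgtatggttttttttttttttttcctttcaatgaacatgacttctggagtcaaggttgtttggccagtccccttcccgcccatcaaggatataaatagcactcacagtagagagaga
Cyp8b1: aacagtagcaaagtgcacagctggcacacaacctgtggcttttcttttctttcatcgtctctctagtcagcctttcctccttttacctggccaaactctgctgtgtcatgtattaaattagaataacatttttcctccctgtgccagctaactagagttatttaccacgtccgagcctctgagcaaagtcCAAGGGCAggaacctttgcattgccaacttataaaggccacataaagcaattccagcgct

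The first Nr5a2 window held AGGTCA at -64 to -59, counted from the start site, and the second held neither motif. Nr0b2 held the extended site CAAGGCCA at -201 to -194, and Cyp8b1 held CAAGGGCA at -60 to -53. Both strands were searched, and CAAGGNCA contains AGGTCA where N is T. All 10 receptors had a RefSeq promoter, 16 in all with alternative starts. Of these, 5 promoters of 4 receptors held AGGTCA (1 start each of Nr5a2, Nr1h4 and Rxra and 2 of the 3 starts of Pparg), against 14% of 32851 promoters. The extended site lay in 1 of the 16, that of Nr0b2, against 5.53% of all promoters. These are letter matches in a short window and describe sequence only.

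The targeted gene checked the labels. The control mean of Mfn1 was 8.62 ± 0.057 on the log2 scale and the Mfn1 LKO mean 7.08 ± 0.11 (SD, n = 4 each), so that it fell by 1.54 (SE 0.064, limma adjusted p = 4.05e-06). Mfn1 was the 1 gene of 8815 tested that passed an adjusted p of 0.05 (0.0113%). In the limma fit over all probes, Mfn1 probe ILMN_2719296 differed by -1.57 (adjusted p = 1.49e-07). Mfn1 probe ILMN_1232014 did not pass the filter on dim probes and differed by 0.012 (adjusted p = 0.976). Median array signals lay between 96.4 and 103.9, and array-to-array correlations between 0.985 and 0.995. Each array came from a different mouse, so the p-values measure the spread between mice, and 4 mice a group limit the precision. Hepatocyte markers summed to signals of 84212 to 89147 in the control group and of 83442 to 93876 in the Mfn1 LKO group. Of 15 macrophage markers tested, 15 had a higher mean in Mfn1 LKO livers, where 3935 of all 8815 genes did. An unadjusted limma p under 0.05 was reached by 7 of the 15, against 10.6% of all genes. None passed the adjusted threshold (lowest adjusted p = 0.270). The marker signals summed to 4034 to 4818 in the control group and 4269 to 6623 in the Mfn1 LKO group. Their mean was 0.33 higher on the log2 scale. As a mean deviation from each marker's own average, Mfn1 LKO liver 637 (-0.15) lay inside the control range of -0.28 to 0.020. No marker of adipocytes passed the filter on dim probes.

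None of the 9 receptor genes passed the adjusted threshold. By direction, 4 had a higher and 5 a lower mean in Mfn1 LKO livers, with a median log2 fold change of -0.0037, beside 3935 higher, 4880 lower and a median of -0.012 over all genes. An unadjusted p under 0.05 was reached by 1 of the 9, Nr5a2, against 10.6% of all genes. The same gene was the 1 of 9 whose groups did not overlap, against 6.11% of all genes, 3.2% in the lower direction. Fitted on every probe without a filter, 0 of the 15 receptor probes passed, against 0.0117% of all probes. Of these 15, 2 were under an unadjusted p of 0.05, where the array as a whole had 8.14%, and 1 had groups that did not overlap, against 4.52%. In the main setting, the 95% interval of the brightest probe's log2 fold change lay inside 0.3 either way for 6 of 9 receptors. It lay inside 0.5 either way for all 9. These intervals hold for that setting, and others moved the estimates. Nr5a2 was at -0.356 with a background offset of 16, and Nr1i3 at 0.288 with the mean of the macrophage markers as a covariate.

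**Figure D1:**
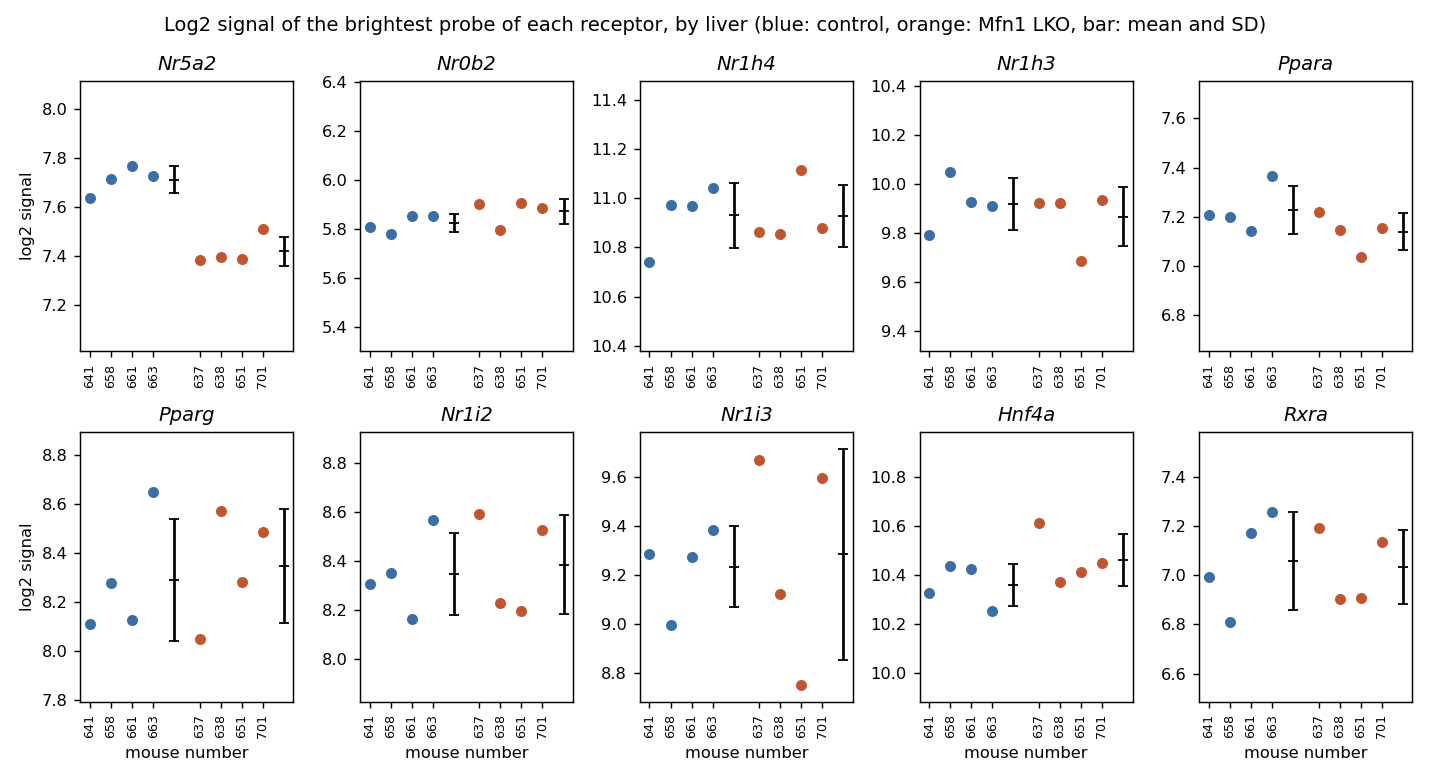
Log2 signal of the brightest probe of each of the 10 receptors (y axis, each panel on its own range of equal length) in every liver, by mouse number, with controls in blue, Mfn1 LKO livers in orange and bars for the group mean and SD (n = 4 each). Nr5a2 is the panel where all 4 Mfn1 LKO livers (7.38 to 7.51) lie below all 4 controls (7.64 to 7.77), and in the other 9 panels the groups overlap.

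Nr5a2 encodes LRH-1, an orphan receptor that binds phospholipids and activates bile acid synthesis and sterol uptake genes. Its log2 signal (probe ILMN_2634389, gene on chromosome 1) was 7.64, 7.71, 7.77 and 7.73 in controls 641, 658, 661 and 663. It was 7.38, 7.40, 7.39 and 7.51 in Mfn1 LKO livers 637, 638, 651 and 701, the order kept for every gene below. Every Mfn1 LKO liver lay below every control, and liver 701 was the closest to the controls. After scaling each array to a common median, liver 651 was the closest (7.55). The means were 7.71 ± 0.054 and 7.42 ± 0.060 (SD, n = 4 each), a log2 difference of -0.29 (SE 0.052, 95% interval -0.41 to -0.17). On the linear scale the Mfn1 LKO level was 0.817 of the control level. The unadjusted limma p was 0.000259, rank 8 of all genes, and the adjusted p of 0.177 did not pass.

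The Nr5a2 groups were separate after normalization between arrays and not before it. Deposited linear signals of that probe were 226.5, 220.5, 255.2 and 278.5 in controls and 186.5, 219.8, 230.0 and 201.0 in Mfn1 LKO livers, so that liver 651 lay above controls 641 and 658. In the authors' log2 table, which is normalized between arrays, controls lay between 7.88 and 7.99 and Mfn1 LKO livers between 7.66 and 7.77, without overlap. Scaling to a common median kept them apart by 0.028 on the log2 scale, against 0.13 with quantile normalization, and its adjusted p was 0.787. When the mean of the macrophage markers entered the fit as a covariate, the Nr5a2 difference was -0.335 (adjusted p = 0.573), beside -0.29 without it. That marker mean was itself 0.33 higher in Mfn1 LKO livers, so the fit cannot separate it cleanly from genotype. Cell mixture as a cause was not tested.

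The other Nr5a2 probes gave smaller differences. Probe ILMN_2813203 read 6.45, 6.73, 6.55 and 6.42 in controls and 6.47, 6.50, 6.39 and 6.32 in Mfn1 LKO livers, which overlap, with a log2 difference of -0.12 (SE 0.071, limma adjusted p = 0.734 over all probes). Probe ILMN_2751680 did not pass the filter and differed by -0.0022 (SE 0.047, adjusted p = 0.995). Within each array the signal of the brightest Nr5a2 probe stood at the 80.4th to 84.0th percentile of all probes, that of ILMN_2813203 at the 64.4th to 72.3rd, and that of ILMN_2751680 at the 37.1st to 53.4th. The mean over both kept probes differed by -0.204 (adjusted p = 0.261), with no overlap between groups. Thus 1 of the 3 probes carried the separation, and which transcripts each probe reads was not analysed here.

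Nr0b2 encodes SHP. Its single probe read 5.81, 5.78, 5.86 and 5.86 in controls and 5.90, 5.80, 5.90 and 5.89 in Mfn1 LKO livers, on an array where the lowest value was 5.65 and the median 6.02. This was the 7.48th to 33.3rd percentile of each array, below the median probe in each liver. The difference of 0.047 (SE 0.043, limma adjusted p = 0.855 over all probes) therefore carries little information on the transcript.

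**Figure D2:**
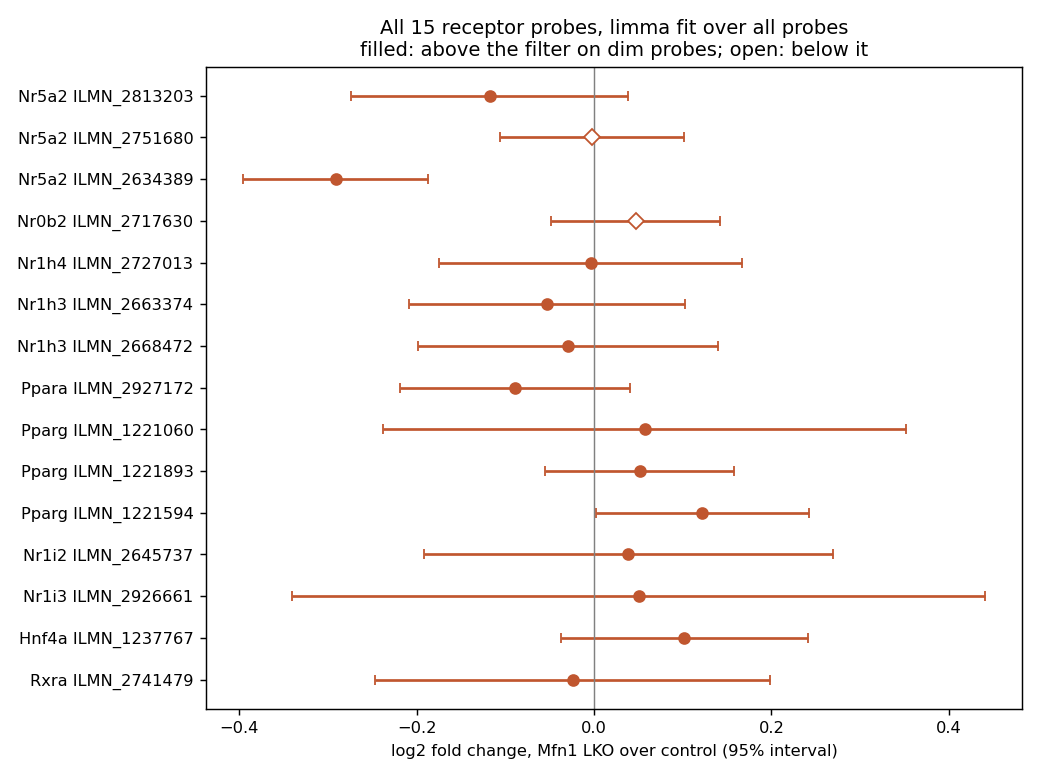
Log2 fold change, Mfn1 LKO over control, of all 15 receptor probes from the fit over every probe, with 95% intervals. The brightest Nr5a2 probe, at -0.29, stands farthest from 0, and the other probes of Nr5a2 lie at -0.12 and -0.0022.

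The bile acid receptor Nr1h4 (FXR, chromosome 10) had the same mean in both groups, 10.93 ± 0.13 and 10.93 ± 0.13 (SD, n = 4 each). Controls read 10.74, 10.97, 10.97 and 11.04, and Mfn1 LKO livers 10.86, 10.85, 11.12 and 10.88. The lowest liver was a control (641) and the highest an Mfn1 LKO liver (651). With a common median the lowest was an Mfn1 LKO liver (701, 10.72) and the highest a control (663, 11.27). The difference was -0.0037 with a 95% interval of -0.19 to 0.18 (limma adjusted p = 0.993), which corresponds to -12.2% to 13.3%.

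The oxysterol receptor Nr1h3 (LXR alpha, chromosome 2) read 9.79, 10.05, 9.93 and 9.91 in controls and 9.92, 9.92, 9.69 and 9.94 in Mfn1 LKO livers. Liver 651 stood below the other 3 Mfn1 LKO livers, and those 3 lay within the control range. With a common median liver 651 read 9.86, inside their range of 9.78 to 10.04. The difference was -0.053 (SE 0.075, adjusted p = 0.859). A second probe, ILMN_2668472, had its lowest value in liver 651, 7.05 against 7.29 to 7.39 in the other Mfn1 LKO livers, and differed by -0.029 (SE 0.077, adjusted p = 0.963 over all probes). In its deposited linear signals liver 651 (186.6) was not the lowest, and control 658 (174.9) was.

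Ppara (chromosome 15), the fatty acid sensor of the fasted liver, read 7.21, 7.20, 7.14 and 7.37 in controls and 7.22, 7.14, 7.04 and 7.15 in Mfn1 LKO livers. The highest value was a control's and the lowest an Mfn1 LKO liver's, with overlap between them. The difference was -0.089 (SE 0.064, 95% interval -0.23 to 0.054, limma adjusted p = 0.667). It was -0.013 with the macrophage covariate, -0.043 without control 663 and -0.055 without Mfn1 LKO 651.

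Pparg (chromosome 6), the receptor of fat storage, varied more between mice. It read 8.11, 8.28, 8.13 and 8.65 in controls and 8.05, 8.57, 8.28 and 8.49 in Mfn1 LKO livers, so that low and high livers occurred in both groups. Its means were 8.29 ± 0.25 and 8.35 ± 0.23, a difference of 0.057 (SE 0.14, 95% interval -0.26 to 0.37, adjusted p = 0.925). Of its 2 dimmer probes, ILMN_1221594 read 6.31, 6.35, 6.26 and 6.33 in controls and 6.32, 6.56, 6.41 and 6.45 in Mfn1 LKO livers. That difference of 0.12 (SE 0.054) had an unadjusted p of 0.0470 in limma's fit and an adjusted p of 0.605, and the groups overlapped. ILMN_1221893 differed by 0.051 (adjusted p = 0.860).

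After quantile normalization, the xenobiotic receptors also differed widely between mice of the same group. Nr1i2 (PXR, chromosome 16) read 8.31, 8.35, 8.16 and 8.57 in controls and 8.59, 8.23, 8.20 and 8.53 in Mfn1 LKO livers, a difference of 0.039 (SE 0.11, limma adjusted p = 0.939). With a common median its Mfn1 LKO livers lay closer together, at 8.33 to 8.47, and its controls at 8.16 to 8.76. Nr1i3 (CAR, chromosome 1) read 9.28, 8.997, 9.27 and 9.38 in controls and 9.67, 9.12, 8.75 and 9.59 in Mfn1 LKO livers. Both its highest and its lowest value came from Mfn1 LKO livers, 637 and 651, a range of 0.92 on the log2 scale. The means were 9.23 ± 0.17 and 9.29 ± 0.43, with a difference of 0.051 (SE 0.18, 95% interval -0.36 to 0.46, adjusted p = 0.955), and of 0.29 with the macrophage covariate. This was the widest interval of the 9 receptors, from -22.2% to 37.8%. With a common median both ends of Nr1i3 were controls, 658 (8.82) and 663 (9.59). Within-group SD after quantile normalization stood at the 97.1st percentile of tested genes for Nr1i3, the 93.9th for Pparg and the 88.8th for Nr1i2. For Nr5a2 it stood at the 10.2nd.

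Hnf4a (chromosome 2), the homodimeric regulator of hepatocyte genes, read 10.32, 10.44, 10.42 and 10.25 in controls and 10.61, 10.37, 10.41 and 10.45 in Mfn1 LKO livers. Liver 637 was the highest, and the other 3 Mfn1 LKO livers overlapped the controls. With a common median liver 651 was the highest (10.54), and 637 and 638 also lay above every control. The difference was 0.10 (SE 0.068, 95% interval -0.050 to 0.25, limma adjusted p = 0.641). Rxra (chromosome 2), the shared dimer partner, read 6.99, 6.81, 7.17 and 7.26 in controls and 7.19, 6.90, 6.91 and 7.14 in Mfn1 LKO livers. Its means of 7.06 ± 0.20 and 7.04 ± 0.15 differed by -0.024 (SE 0.11, adjusted p = 0.965).

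**Figure D3:**
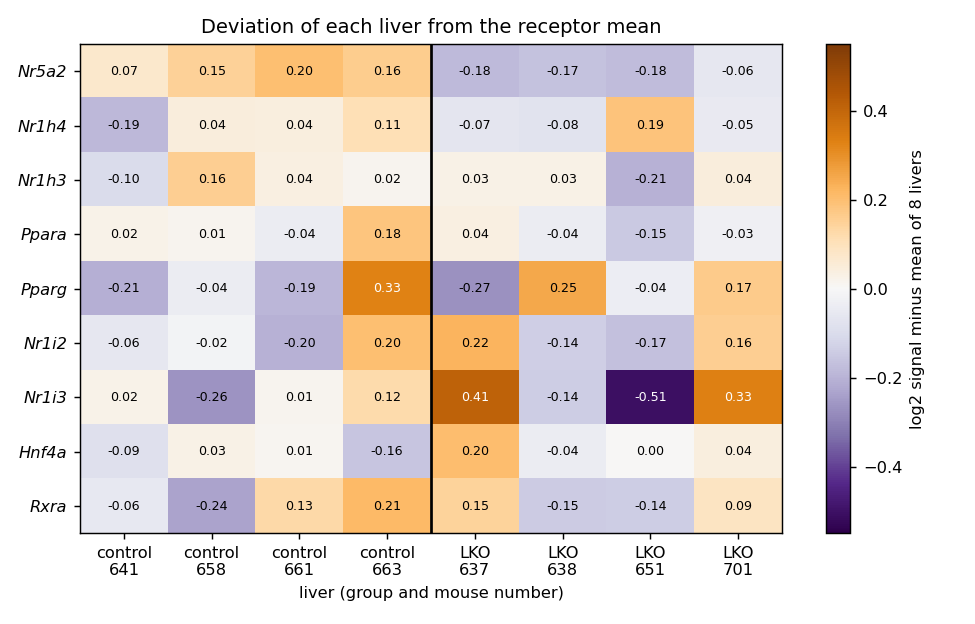
Quantile-normalized log2 signal of 9 receptors in each liver minus the receptor's mean over the 8 livers, drawn as colours with the values in the cells. The Nr5a2 row is above its mean in 4 controls and below it in 4 Mfn1 LKO livers, while livers 637 and 651 hold opposite ends of Nr1i3.

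Over the 9 receptors, after quantile normalization, liver 637 held the highest or lowest value 5 times and livers 651 and 663 4 times each. Livers 658 and 661 did so 2 times each and liver 641 1 time. Livers 638 and 701 held neither end of any receptor. Liver 651 was lowest for Nr1h3, Ppara and Nr1i3 and highest for Nr1h4. These ends depended on the normalization. With a common median, control 663 was highest for Nr5a2, Nr1h4, Nr1h3, Ppara, Pparg, Nr1i2, Nr1i3 and Rxra. Liver 701 was then lowest for Nr1h4 (10.72) and Ppara (7.08). Liver 651 then held none of the ends just named for it, and was highest for Hnf4a (10.54).

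**Figure D4:**
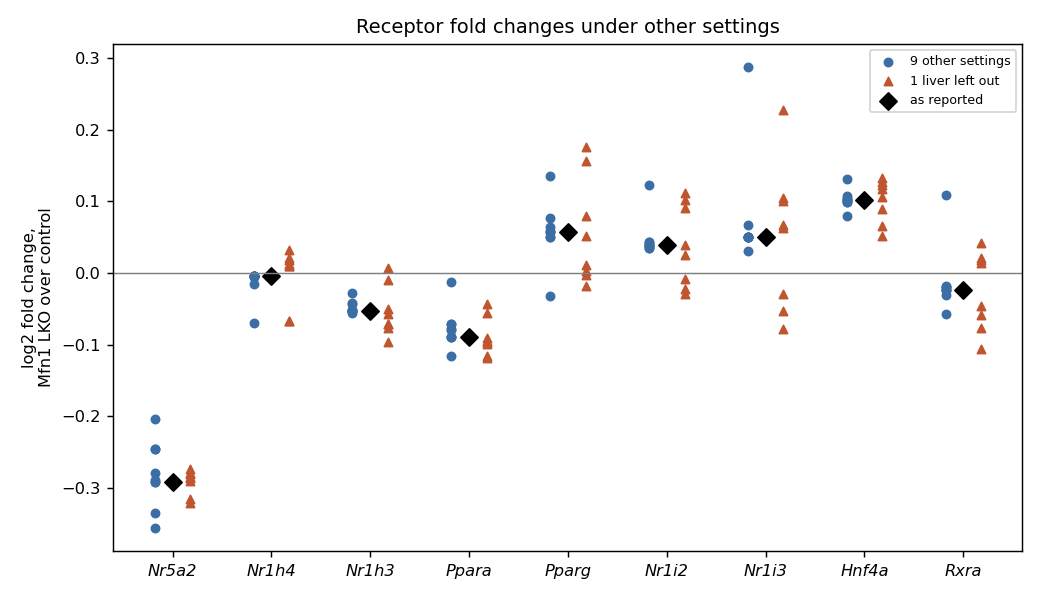
Log2 fold change of 9 receptors under the main setting and each alternative (other background, normalization, probe rule, test, macrophage covariate, and 1 liver left out). All values for Nr5a2 lie below 0, from -0.356 to -0.204, while those of several other receptors lie on both sides of 0. Leaving out 1 liver cannot turn the sign of Nr5a2, whose groups do not overlap.

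Partners, cofactors and targets were read from lists of known members. Together the 9 lists held 155 genes, of which 113 were tested, 57 higher and 56 lower in Mfn1 LKO livers, with a median log2 fold change of 0.00070. None passed the adjusted threshold. An unadjusted p under 0.05 was reached by 18 (15.9% against 10.6% of all genes), and the groups did not overlap for 8 (7.08% against 6.11%).

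**Figure D5:**
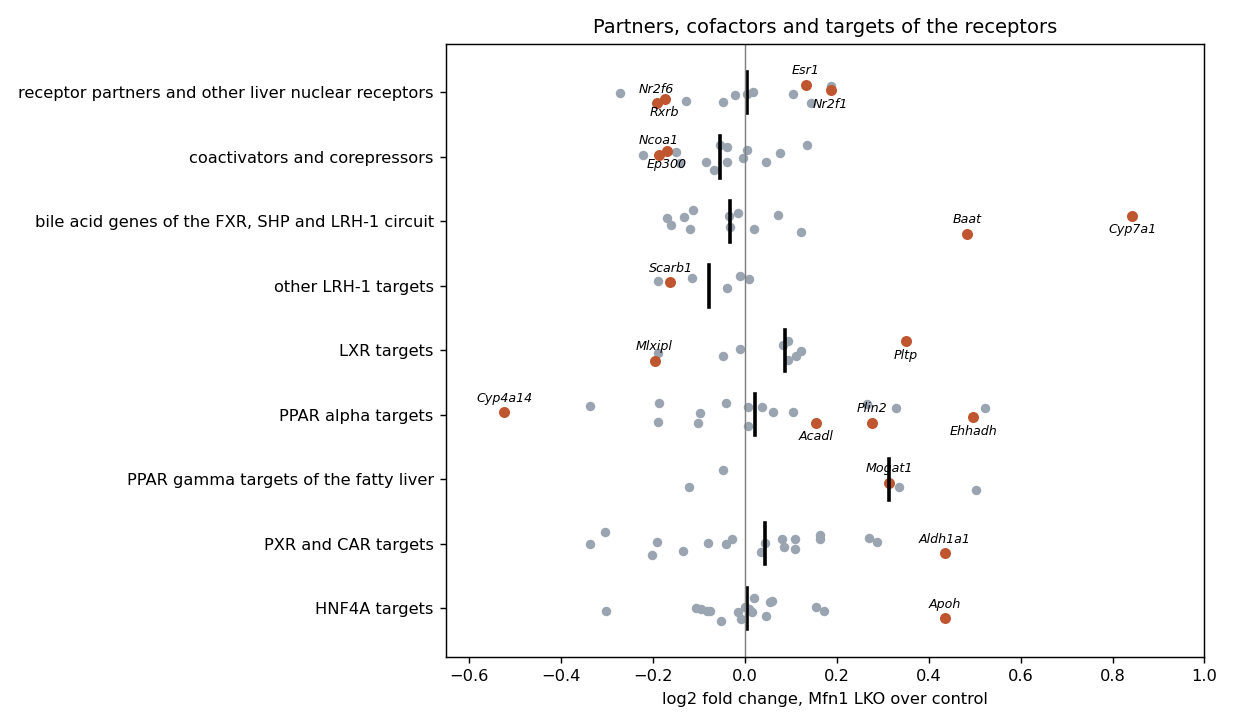
Log2 fold change, Mfn1 LKO over control, of each tested gene in the 9 lists of receptor partners, cofactors and targets, with a black bar for the median of each list and names on the genes with an unadjusted p under 0.05. The medians run from -0.078 for other LRH-1 targets to 0.31 for the 5 tested PPAR gamma targets, and no gene passed the adjusted threshold.

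Among other receptors, 13 of 23 were tested, 7 higher and 6 lower, with a median of 0.0040 that lay on both sides of 0 over the alternatives (lowest limma adjusted p = 0.318). The orphan receptor Nr2f6 differed by -0.19 (adjusted p = 0.318), or by -0.083 as the mean of its probes, and Rxrb, an alternative dimer partner, by -0.17 (adjusted p = 0.341). Esr1, the estrogen receptor, read 6.53, 6.49, 6.55 and 6.47 in controls and 6.62, 6.62, 6.62 and 6.70 in Mfn1 LKO livers, all higher, by 0.13 (adjusted p = 0.355). Nr2f1 differed by 0.19 (adjusted p = 0.416). Of these 4 differences none passed, and they lay in both directions.

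Coactivators and corepressors were mostly lower by sign, 11 of 15 tested with a median of -0.053, where 55.4% of all genes were lower. With the macrophage covariate their median was 0.016. Ncoa1, a steroid receptor coactivator, read 7.05, 7.12, 7.03 and 7.09 in controls and 6.98, 6.78, 6.84 and 6.94 in Mfn1 LKO livers, a difference of -0.19 (limma adjusted p = 0.298). Ep300, a histone acetyltransferase, read 7.45, 7.44, 7.61 and 7.54 against 7.36, 7.28, 7.41 and 7.29, a difference of -0.17 (adjusted p = 0.341). For both, every Mfn1 LKO liver lay below every control. Med1, the Mediator subunit that contacts nuclear receptors, differed by 0.14 (adjusted p = 0.615). Ppargc1a (PGC-1 alpha), the fasting coactivator of PPAR alpha and HNF4A, differed by -0.14 (adjusted p = 0.632) with overlap.

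In the bile acid circuit, 13 of 15 genes were tested, 5 higher and 8 lower, with a median of -0.032. That median was 0.077 with the macrophage covariate and ran from -0.061 to 0.0052 with 1 liver left out. Cyp7a1, the rate-limiting enzyme of bile acid synthesis, read 9.14, 8.86, 9.04 and 9.85 in controls and 10.34, 10.55, 9.46 and 9.91 in Mfn1 LKO livers. Livers 637 and 638 stood above all others, and control 663 lay among the Mfn1 LKO livers. The difference was 0.84 (SE 0.26, 95% interval 0.27 to 1.42, limma adjusted p = 0.299), and 1.38 once the mean of the macrophage markers was a covariate.

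Baat, which conjugates bile acids with taurine, read 9.93, 9.76, 9.67 and 9.40 in controls and 9.99, 10.30, 10.31 and 10.10 in Mfn1 LKO livers, without overlap, a difference of 0.48 (SE 0.11, adjusted p = 0.240). Slc27a5, the bile acid CoA ligase of the step before it, differed by -0.16 (adjusted p = 0.626), and Slc10a1, the bile acid uptake carrier, by 0.12 (adjusted p = 0.692). Cyp8b1, the LRH-1 target whose promoter is shown above, differed by 0.073 (adjusted p = 0.923). Abcb11, the canalicular bile salt pump that FXR induces, differed by -0.12 (adjusted p = 0.804).

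Of the other LRH-1 targets, 6 of 8 were tested, 1 higher and 5 lower, with a median of -0.078. Scarb1, the HDL receptor, read 6.28, 6.37, 6.44 and 6.38 in controls and 6.27, 6.20, 6.19 and 6.15 in Mfn1 LKO livers, all lower, with a difference of -0.16 (limma adjusted p = 0.324), or -0.29 with a background offset of 16. Abcg8, a sterol exporter subunit, differed by -0.19 (adjusted p = 0.584), Apom, an HDL apolipoprotein, by -0.12 (adjusted p = 0.699) and Plk3, a kinase, by -0.040 (adjusted p = 0.965). With the macrophage covariate the list's median was 0.044, Abcg8 turned to 0.054 and Plk3 to 0.22.

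Among LXR targets, 10 of 12 were tested, 6 higher and 4 lower, with a median of 0.087. Srebf1, the lipogenic transcription factor that LXR induces, read 8.17, 8.09, 8.40 and 8.40 in controls and 8.50, 8.51, 8.04 and 8.45 in Mfn1 LKO livers, a difference of 0.11 (limma adjusted p = 0.791). After quantile normalization its lowest value was in liver 651, where both Nr1h3 probes were lowest as well. With a common median Nr1h3 was lowest in control 641 (9.76). Mlxipl (ChREBP) differed by -0.20 (adjusted p = 0.391), Pltp, a phospholipid transfer protein, by 0.35 (adjusted p = 0.468) and Scd1, a fatty acid desaturase, by 0.12 (adjusted p = 0.632). With the macrophage covariate these were -0.059, 0.050 and -0.0075.

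For PPAR alpha, 18 of 26 targets were tested, 11 higher and 7 lower, with a median of 0.022. Ehhadh, the peroxisomal bifunctional enzyme, read 8.45, 8.21, 8.60 and 8.11 in controls and 8.76, 8.86, 9.17 and 8.57 in Mfn1 LKO livers, a difference of 0.50 (SE 0.14, limma adjusted p = 0.270). Cyp4a14, a fatty acid omega-hydroxylase, lay the other way, at 12.23, 11.84, 12.42 and 12.32 in controls and 11.69, 12.01, 11.80 and 11.22 in Mfn1 LKO livers, a difference of -0.52 (SE 0.17, adjusted p = 0.324). Both are PPAR alpha targets, the groups overlapped for each, and neither passed. With the macrophage covariate Cyp4a14 was at -0.23. Plin2, a lipid droplet coat protein, differed by 0.28 (adjusted p = 0.417) and Acadl, a mitochondrial acyl-CoA dehydrogenase, by 0.16 (adjusted p = 0.451). With that covariate Plin2 was at 0.072.

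PPAR gamma targets of the fatty liver had the highest median of the 9 lists, 0.31, over 5 tested of 10, with 3 higher and 2 lower. Mogat1, a monoacylglycerol acyltransferase, read 6.81, 7.04, 7.03 and 7.02 in controls and 7.06, 7.24, 7.65 and 7.20 in Mfn1 LKO livers, without overlap, a difference of 0.31 (limma adjusted p = 0.372). Cidec, a lipid droplet fusion protein, read 7.55, 8.47, 8.49 and 8.62 in controls and 8.40, 8.65, 9.59 and 8.50 in Mfn1 LKO livers, a difference of 0.50 (adjusted p = 0.591). The low end was control 641 and the high end liver 651 for both. Cidea differed by 0.34 (adjusted p = 0.83), and Plin4, a droplet coat protein, by -0.12 (adjusted p = 0.903).

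That median rested on single livers. It was 0.038 without control 641, 0.026 without Mfn1 LKO 651 and 0.21 without control 663, and -0.23 with the macrophage covariate. Mogat1 was 0.19 without liver 651, and Cidec was 0.26 without 641 and 0.24 without 651. With the macrophage covariate they were at 0.15 and 0.21.

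Among targets of PXR and CAR, 19 of 24 were tested, 11 higher and 8 lower, with a median of 0.044. Aldh1a1, a retinal dehydrogenase, read 11.67, 11.60, 11.41 and 11.49 in controls and 11.95, 11.84, 12.23 and 11.89 in Mfn1 LKO livers, without overlap. Its difference of 0.43 (SE 0.092) had the lowest adjusted p of the 9 lists, 0.206 in limma's fit. The classic inducible enzymes differed less relative to their errors, with Cyp2b10 at 0.085 (adjusted p = 0.877), Cyp3a11 at -0.31 (adjusted p = 0.719), Cyp2c55 at 0.11 (adjusted p = 0.577) and Cyp2c37 at -0.34 (adjusted p = 0.699). Cyp2b10 (5.94 to 6.59) and Cyp2c55 (6.11 to 6.41) were dim, near the median log2 signal of 6.02, so their values carry less information. Papss2, which makes the sulfate donor of conjugation, differed by 0.16 (adjusted p = 0.716), by 0.43 with the macrophage covariate and by 0.050 to 0.29 with 1 liver left out.

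Targets of HNF4A, mostly secreted liver proteins, were tested for 18 of 21 genes, 10 higher and 8 lower, with a median of 0.0043. Apoh, a plasma glycoprotein, differed by 0.44 (limma adjusted p = 0.328), the urea cycle enzyme Otc by 0.15 (adjusted p = 0.719), coagulation factor F9 by -0.096 (adjusted p = 0.623) and the anticoagulant Proc by 0.060 (adjusted p = 0.765). Apoc3 differed by 0.020 and sat at the top value of the array, 14.37, in 4 of 8 livers.

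Each receptor was set against 1 target across the livers in 9 pairs. Nr0b2 had no kept probe for its pair with Cyp7a1, and the pair of Nr5a2 and Cyp8b1 was not tested, since the Nr5a2 groups formed separate clusters of 4. None of the other 7 passed after Benjamini-Hochberg adjustment over them. That of Hnf4a and Apoc3 says nothing about the relation, because Apoc3 is at its ceiling in 4 livers. Nr1h3 and Srebf1 had r = 0.385 (exact permutation p = 0.354, adjusted p = 0.676) and rho = 0.238 (exact p = 0.582, adjusted p = 0.811). Without livers 641 and 651, the farthest in Nr1h3, r was -0.935, so the positive sign rested on those livers.

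Pparg and Cidec had rho = 0.786 (exact permutation p = 0.0279, adjusted p = 0.195) with r = 0.302 (exact p = 0.483, adjusted p = 0.676), and r = 0.359 without livers 663 and 638. Nr1i3 and Cyp2b10 had r = 0.390 (exact permutation p = 0.337, adjusted p = 0.676), rho = 0.452 (exact p = 0.267, adjusted p = 0.572), and r = 0.315 without livers 637 and 651. The low signal of Cyp2b10 limits that pair. Nr1h4 and Abcb11 had r = -0.425 (exact permutation p = 0.291, adjusted p = 0.676), rho = -0.405 (exact p = 0.327, adjusted p = 0.572), and r = -0.168 without livers 641 and 651. In none of these pairs did the relation of receptor to target pass the test.

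For PPAR alpha and PXR the values were as follows. Ppara and Cyp4a14 had r = 0.327 (exact permutation p = 0.427, adjusted p = 0.676), rho = 0.048 (exact p = 0.935, adjusted p = 0.935), and r = -0.107 without livers 663 and 651. Nr1i2 and Cyp3a11 had r = -0.173 (exact permutation p = 0.683, adjusted p = 0.683), rho = -0.429 (exact p = 0.299, adjusted p = 0.572), and r = -0.119 without livers 663 and 637.

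Likeness was ranked by Pearson's r over the 8 livers among 8815 genes, without gene models or clones such as LOC, Gm and Rik names. The genes whose signal followed a receptor most closely are given as a description. For Nr5a2 these were Gpbp1 (0.972) and Vezf1 (0.966), and after the group means were removed r was 0.778 and 0.698. Ttc3 (0.976) and Osbpl3 (0.965) followed Nr1h4, Tfr2 (0.930) and Ang (0.921) followed Nr1h3, and Ubap2l (0.944) and Usp30 (0.932) followed Ppara. Cyp17a1 (0.926) and Col11a2 (0.922) followed Pparg, Slc41a3 (0.954) and Tbxa2r (0.949) followed Nr1i2, and Cfap410 (0.964) and Ndufs8 (0.947) followed Nr1i3. Man2a2 (0.947) and Actg2 (0.938) followed Hnf4a, and Aqp11 (0.973) and Slc25a36 (0.969) followed Rxra. Every receptor thus had genes at r above 0.92, and over 8 livers these values rank likeness only.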

How the data were processed

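The tables the authors deposited hold linear intensity per probe and array, without detection p-values or control probes, and log2 values of the same arrays. Those deposited log2 values were within 0.0066 of quantile-normalized log2 intensities, and scanner software is not given in the sources used here. The neqc correction planned first needs detection p-values or control probes, so its planned substitute was used: limma normexp (offset 50), quantile normalization and log2. Probes brighter than the median of their array on 4 or more arrays were retained (12755), and the brightest named one stood for each of 8815 genes. Symbols came from the platform annotation (23978 probes with 1 symbol, 0 with several, 1719 unnamed here); 23962 matched RefSeq gene IDs. Groups were fitted with limma 3.58.1 (R 4.3.3), and two-sided p-values were adjusted by Benjamini-Hochberg over all genes, or over all 25697 probes for the probe fit, against a threshold of 0.05. Fold changes are Mfn1 LKO over control; the offset shrinks those of dim genes. Correlations used exact permutation over pairings (Python 3.11.15, scipy 1.17.1), adjusted over the pairs. Figures were drawn with matplotlib 3.10.9. The gene test was tested on simulated data.

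Groups came from the sample titles, and the labels name no batch. The receptors and lists were chosen with earlier results of these data known. The rule for named genes took Mfn1, all receptors with every probe, and the 4 genes of each list with the smallest p. It also took the targets of the pairs and the 2 genes most like each receptor, leaving out gene models and clones. Alternatives were no background correction, offset 16, a common median, the deposited log2 table, no filter, the mean of a gene's probes, limma with trend and robust estimation, array weights, a macrophage covariate, and each liver left out.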

Additional observations from a re-analysis of the deposited data

Results flagged for a closer look

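A liver that stood apart from the other 3 of its group was looked for by the gap to its nearest neighbour over the group's range, against Dixon's critical value for 4 samples. In 146 groups of 73 genes and probes 12 were past it, where chance flags about 1 in 20, or 7.3. Some of these genes were picked for a small p and some for following a receptor over the same livers. The 12 therefore cannot be weighed against 7.3. Among receptors, Nr5a2 in Mfn1 LKO liver 701 read 7.51 against 7.38 to 7.40 in the others (0.877). Liver 651 stood apart for Nr1h4, at 11.12 against 10.85 to 10.88 (0.908), and for Nr1h3, at 9.69 against 9.92 to 9.94 (0.937). The same liver was low for Srebf1, at 8.04 against 8.45 to 8.51 (0.874). These flags are of quantile-normalized values. With a common median, Nr1h3 in liver 651 (9.86) and Nr5a2 in liver 701 (7.41) lay inside the range of the other Mfn1 LKO livers. Nr1h4 in liver 651 (11.21) stayed the highest of its group and lay below control 663 (11.27).

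Control 641 was low for Mogat1, at 6.81 against 7.02 to 7.04 (0.905), for Cidec, at 7.55 against 8.47 to 8.62 (0.862), and for Ttc3, at 8.74 against 9.003 to 9.04 (0.888). Control 661 was low for Apom, at 10.06 against 10.33 to 10.38 (0.833), and for F9, at 11.94 against 12.06 to 12.08 (0.898). Mfn1 LKO liver 637 was low for Pltp, at 7.98 against 8.63 to 8.73 (0.868), and for Cyp17a1, at 7.40 against 8.38 to 8.52 (0.875). Esr1 in liver 701 read 6.70 against 6.62 in the other 3 Mfn1 LKO livers (0.937).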

How the results depend on the processing

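No receptor gene, receptor probe, target or cofactor gene, or receptor and target pair passed under any alternative run. Of all genes, 1 passed in the main setting, and 2 without a filter and 2 with array weights. These 2 were Mfn1 and Ndufb5, with a limma adjusted p for Ndufb5 of 0.0442 without a filter and 0.0429 with array weights. With 1 liver left out the number of genes that passed lay between 1 and 3. The 3 came without Mfn1 LKO 701 and were Mfn1, Ndufb5 (0.0398) and Bhmt (0.0323), the last 2 named after their values were seen. The genes at an unadjusted p under 0.05 numbered 933, but 418 with a common median, 596 with the macrophage covariate and 613 without control 661. Nr5a2, Ppara and Hnf4a kept their sign in all 17 alternatives, some of which could not turn it. The run without a filter and the trend and robust fit left their estimates unchanged, as did the mean of probes for Ppara and Hnf4a. The deposited log2 values nearly repeated the estimates without background correction. Leaving out 1 liver cannot turn Nr5a2, whose groups do not overlap. Ppara lay between -0.12 and -0.013 and Hnf4a between 0.051 and 0.13. Nr5a2 lay between -0.356 and -0.204 over settings and between -0.32 and -0.27 with 1 liver left out, with adjusted p from 0.125 (array weights) to 0.787 (common median).

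With the macrophage covariate the sign turned for Pparg (-0.032), Rxra (0.11), the second Nr1h3 probe (0.020), Ppargc1a (0.016), Abcg8 (0.054), Plk3 (0.22), Scd1 (-0.0075), Cidea (-0.54) and Cyp2c37 (0.12), and list medians were 0.044 for other LRH-1 targets, -0.23 for PPAR gamma, 0.090 for HNF4A, 0.016 for coactivators and corepressors and 0.077 for bile acid genes. The median of receptor partners was -0.017 with array weights, and that of HNF4A targets -0.0085 with the mean of a gene's probes. A count of moved values covered 45 named genes: Mfn1, the tested receptors and the genes taken from each list by smallest p. The genes most like a receptor and the other targets of the pairs were not in this count. Of the 45, 37 moved by over 1.5 times or turned under at least 1 alternative. Of these 37, 27 did so with the macrophage covariate and 27 with 1 liver left out. The median for PPAR gamma was 0.084 without a filter. With the mean of a gene's probes Proc was -0.0080, and with a common median r was 0.278 for Nr1h4 and Abcb11 and 0.060 for Nr1i2 and Cyp3a11. The cause was not tested. With 1 liver left out, values crossed 0 for Nr1h4 (-0.067 to 0.033), Nr1h3 (-0.096 to 0.0066), its second probe (-0.069 to 0.045), Pparg (-0.018 to 0.18), Nr1i2 (-0.029 to 0.11), Nr1i3 (-0.078 to 0.23), Rxra (-0.11 to 0.043), Nr5a2 probe ILMN_2751680 (-0.028 to 0.025), Plin4 (-0.38 to 0.053) and Plk3 (-0.13 to 0.14). They also crossed 0 for r of Nr1h3 and Srebf1 (-0.126 to 0.965), Nr1i2 and Cyp3a11 (-0.525 to 0.263), Nr1i3 and Cyp2b10 (-0.020 to 0.631), and Hnf4a and Apoc3 (-0.070 to 0.592). List medians that crossed 0 were those of receptor partners (-0.028 to 0.021), bile acid genes (-0.061 to 0.0052) and targets of PPAR alpha (-0.0087 to 0.047), PXR and CAR (-0.043 to 0.092) and HNF4A (-0.022 to 0.024). No paired analysis was possible because the animal numbers are not shared between groups. The median of all genes lay between -0.016 and -0.0015 over settings. Signal over background limits Nr0b2 and the dimmest Nr5a2 probe, and the median SE of 0.067 limits small differences. It also limits dim genes near the median log2 signal of 6.02. Examples, as control and Mfn1 LKO means, are Cyp2b10 (6.14 and 6.22), Cyp2c55 (6.17 and 6.28), Scarb1 (6.37 and 6.20) and Esr1 (6.51 and 6.64).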

Other observations

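Receptors were also set against each other across the 8 livers, a comparison added after the values were seen. Nr5a2 was left out because its groups were separate. Among 28 pairs of the other 8 kept receptors, r ran from -0.58 to 0.77 and was positive in 19 (67.9%, against 50.6% of all pairs of tested genes). An unadjusted exact permutation p under 0.05 was reached by 3 pairs, and none passed after adjustment over 28. Their r was at least 0.685, a size that 8.08% of all gene pairs reached in either direction, against 10.7% of the receptor pairs, so the count is near the background. Nr1i3 and its dimer partner Rxra had r = 0.771 (exact permutation p = 0.0264, adjusted p = 0.378) and rho = 0.762 (exact p = 0.0368, adjusted p = 0.428), and r = 0.777 without livers 637 and 651. The xenobiotic receptors Nr1i2 and Nr1i3 had r = 0.753 (exact permutation p = 0.0333, adjusted p = 0.378) and rho = 0.738 (exact p = 0.0458, adjusted p = 0.428), and r = 0.634 without livers 663 and 637. Ppara and Nr1i2 had r = 0.685 (exact permutation p = 0.0406, adjusted p = 0.378) and rho = 0.857 (exact p = 0.0107, adjusted p = 0.30), and r = 0.545 without livers 663 and 651.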
